A study of Rattus norvegicus with 2 samples.

Results

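The NF-κB pathway and the TNF receptor family were followed in rat liver through 76 genes, out of 14217 genes that the arrays represented. A gene was taken as a member when a probe set annotated to it alone carried a symbol of this pathway (NF-κB and IκB proteins, IκB kinase, TNF ligands and receptors, TRAF and death-domain adaptors, RIP kinases, IAPs, Toll-like receptors with MyD88 and the IRAKs, and TNFAIP, TNIP and RELT proteins). The probe set of highest mean signal stood for each gene. The choice went by gene name, but it was made with earlier results of these data known. Of the 76 members, 48 were bright enough to be called measured, meaning that the log2 signal, averaged over both arrays, was no lower than the median probe set, a signal of 41.4. Signals under 12.8, the 25th percentile of all values, were set to this floor before a log2 difference or a fold was formed, while the signals printed below are as deposited.

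Liver RNA came from male Wistar rats, an outbred laboratory strain, aged 2 months. The olive oil group had been fasted for 18 h, received a bolus of 5 ml of extra virgin olive oil (16 ml per kg) and was killed 4 h later, and the fasted group had the same 18 h fast and no fat meal. Each group was a single array, with no number of livers per array in the labels and no statement whether the fasted rats waited the extra 4 h. Every difference below therefore sets 1 array against 1 array, has no replicate check, no p-value and no standard deviation over animals, and is given as olive oil minus fasted.

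NF-κB is a family of transcription factors held in the cytoplasm by IκB proteins. When TNF, interleukin 1 or a microbial product binds its receptor, TRAF and RIP proteins or MyD88 and the IRAK kinases lead to the IκB kinase, which marks IκB for destruction and frees NF-κB to enter the nucleus. Several of the genes it then turns on, among them Nfkbia, Bcl3 and Tnfaip3, encode regulators of the pathway itself, so that the response limits its own length. In the liver, hepatocytes, Kupffer cells and endothelial cells all carry parts of this system.

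After olive oil, the 5 measured IκB family genes and Irak3 had a signal higher by 1.5-fold or more. The 4 NF-κB subunits among the members lay within 1.5-fold of their fasted level, and Relt and Tnfaip8l1 were lower. Of 48 measured members, 6 had a signal 2-fold or more higher after olive oil and 4 a signal 2-fold or more lower. The share was 12.5% higher, against 3.25% of all 9208 measured genes, and 8.33% lower, against 2.94% of all measured genes. At 1.5-fold, 11 members (22.9%) were higher, against 9.46% of all measured genes, and 9 (18.8%) were lower, against 10.1%. The other 28 lay within 1.5-fold. The median log2 difference of the members was 0.05, and that of all measured genes was -0.01. For comparison, probe sets of 1 gene scattered with an SD of 0.35 around their mean. The members were dimmer than most genes, with a median signal of 139.2 against 250.6 for all measured genes. Among the 21 members above the 75th percentile of signal, 4 (19.0%) reached 2-fold upward and 0 reached it downward, against 2.42% and 1.96% of all genes that bright. The 2-fold decreases thus all lay among dimmer members.

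**Figure D1:**
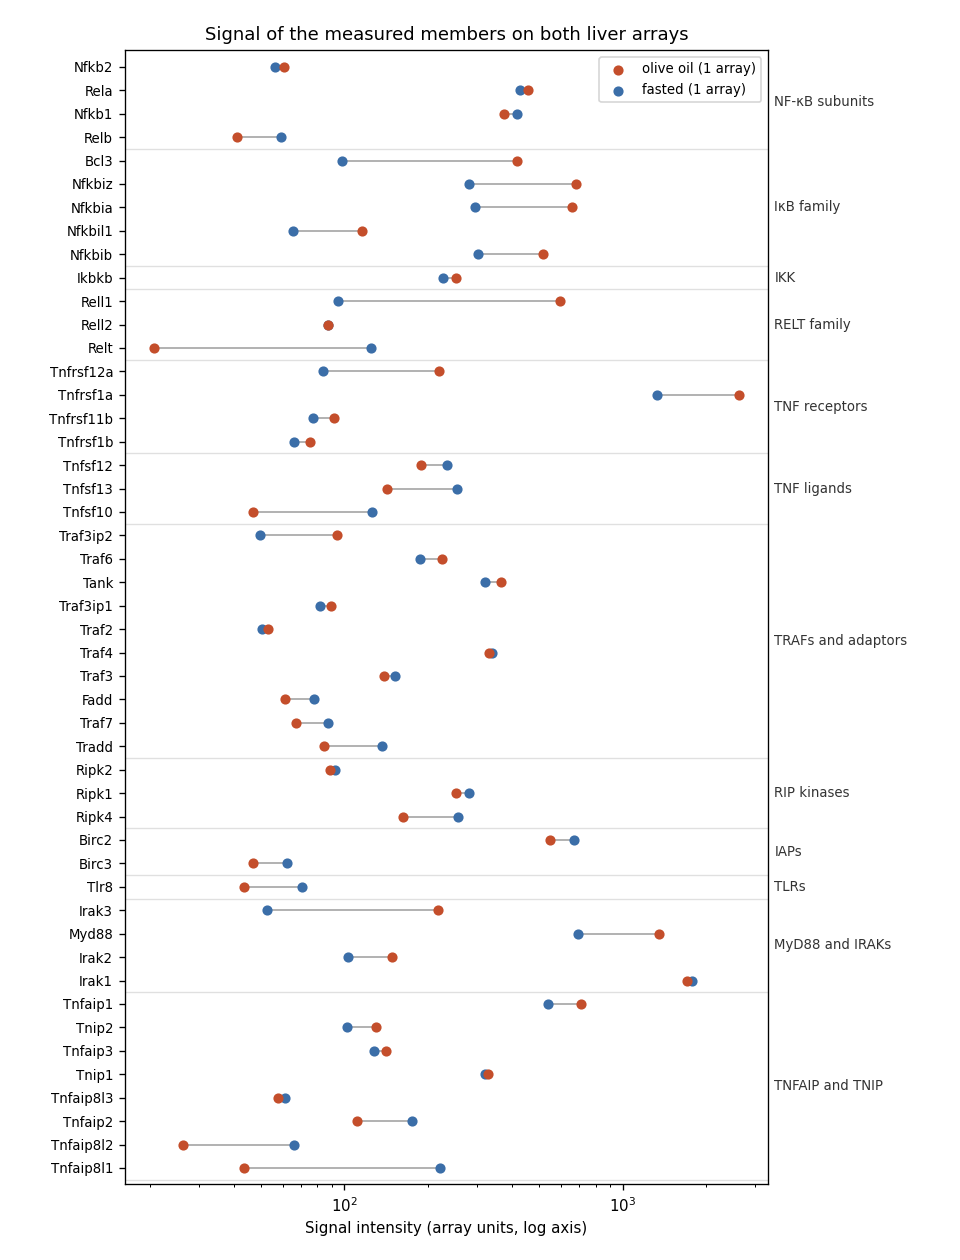
Signal intensity (log axis) of the 48 measured members in the olive oil and the fasted liver array, 1 point per array, grouped by role and ordered within a group by log2 difference. The 5 measured IκB family genes all have the olive oil point to the right of the fasted one, while the points of Rela, Nfkb1 and Nfkb2 lie close together.

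**Figure D2:**
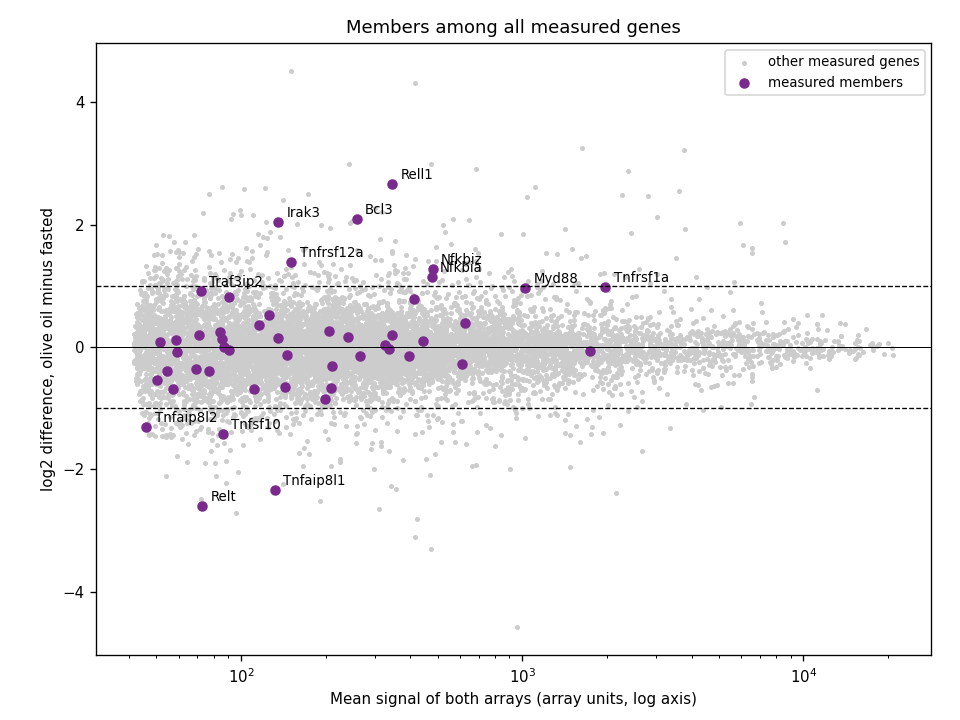
log2 difference (olive oil minus fasted) against mean signal of both arrays (log axis) for all 9208 measured genes in grey and the 48 measured members in purple, with dashed lines at 2-fold. Rell1, Bcl3 and Irak3 stand above most genes of like brightness, and Relt and Tnfaip8l1 below.

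The arrays were alike in brightness, with a median signal of 44.7 for olive oil and 42.5 for fasted, a shift of 0.07 on the log2 scale. The 18 control probe sets for transcripts spiked in before hybridization differed by -0.18 to 0.18. Beta-actin, whose 3' to 5' signal ratio reflects RNA quality, had a ratio of 3.20 in the olive oil array and 2.63 in the fasted array. The label liver was checked against cell type markers. All 5 hepatocyte markers on the arrays (Alb, Apoa1, Ttr, Serpina1 and Cyp2c11) were bright and within 1.5-fold, with a summed signal of 73700 in olive oil liver and 73548 in fasted liver. Of 8 Kupffer cell and macrophage markers on the arrays, all 8 were measured and within 1.5-fold, with sums of 5930 in olive oil liver and 5065 in fasted liver. In such whole-tissue RNA, fewer cells of a type and less RNA per cell cannot be told apart.

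Promoter sequence is shown for members with a match to the κB consensus, the site that NF-κB dimers bind, because such sites stood both in members that were higher and in members that were level. The 250 bases before the start of each gene were searched on both strands in the RefSeq promoter table (build GRCr8), which matched 61 of the 76 members by gene ID. At least 1 match stood in 14 of the 61 members (23%), against 6.41% of 27457 genes of the table. Of the measured members with a promoter entry, 5 of 10 that were at least 1.5-fold higher had a match, 1 of 7 that were at least 1.5-fold lower, and 5 of 20 within 1.5-fold. The lower member was Tnfaip8l1, with a log2 difference of -2.34 and a match at -191 to -182 from the start, not printed below. A match describes these letters only, and overlapping matches were counted once per gene.

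The 4 members at least 2-fold higher with a match were Bcl3, Irak3, Nfkbiz and Nfkbia, each with a single match between -38 and -4 from the start. Their sites are printed first, followed by those of the 5 measured members within 1.5-fold that held a match within 100 bases of the start, Nfkb2, Tnfaip3, Tnip1, Traf3 and Traf7. Each line gives 30 bases, 5′ to 3′ on the strand of the gene, with the bases of a match to the κB consensus in capitals. In order they come from chr1:88613574-88613603 (minus strand), chr7:57598646-57598675 (minus), chr11:58251691-58251720 (plus), chr6:78597084-78597113 (minus), chr1:255108344-255108373 (plus), chr1:15544021-15544050 (minus), chr10:39585027-39585056 (minus), chr6:136027019-136027048 (plus) and chr10:14056695-14056724 (minus) of GRCr8. RefSeq's longest model of the gene starts farther upstream in 7 of the 9 cases, all but Bcl3 and Tnfaip3, so that these stretches may be transcribed from another start.
Bcl3: tcggcggcagGGGAAGTCCCgcagcccggc
Irak3: aggtctcgcaGGGGCATCCCtggggagagg
Nfkbiz: cggtatctttttggcctGGGAATTTCCagc
Nfkbia: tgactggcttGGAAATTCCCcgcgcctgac
Nfkb2: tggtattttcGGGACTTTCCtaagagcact
Tnfaip3: gactGGAAAGTCCCtcGGAAATCCCCctgt
Tnip1: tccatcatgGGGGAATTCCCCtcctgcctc
Traf3: cgcgcgccctggcggcccgcGGGGATTTCC
Traf7: gcacagtgcccGGGGACTTCCggctcctgt
The printed sites of Nfkbiz, Nfkb2, Traf3 and Traf7 read on the strand of the gene, and those of Nfkbia and Tnfaip3 on the other strand. The sites of Bcl3 and Irak3 fit the consensus on both strands. In Tnip1, 3 matches overlap, so the capitals run over more than the 10 bases of a single site. Tnfaip3 had a further match farther upstream, at -170 to -161 from the start.

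The DNA-binding subunits differed little. Rela, the p65 subunit that carries the activating domain, had a signal of 457.2 in olive oil liver and 429.4 in fasted liver. Nfkb1, the precursor of p50, stood at 375.9 in olive oil liver and 417.6 in fasted liver. Nfkb2, the precursor of p52, stood at 60.9 and Relb, its partner in the alternative pathway, at 41.0 in olive oil liver, against 56.2 and 59.4 in fasted liver. The log2 differences were 0.09 for Rela, -0.15 for Nfkb1, 0.12 for Nfkb2 and -0.53 for Relb, and none of these 4 subunits reached 1.5-fold. The remaining subunit gene, Rel, was not among the members, so nothing is said of it. Ikbkb, the catalytic β subunit of the IκB kinase, was also close, at 252.7 in olive oil and 225.8 in fasted liver, a log2 difference of 0.16. Its partner Chuk, the α subunit, whose symbol does not carry the prefix of the family, was 1.39-fold higher, at 3263 in olive oil and 2340 in fasted liver.

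Every measured member of the IκB family was higher by 1.5-fold or more, against 9.46% of all measured genes. Of 6 members, 5 were measured, and 3 of the 5 reached 2-fold, against 3.25% of all measured genes. The median log2 difference of the 5 was 1.15. Nfkbil1 was counted in by its symbol, and the IκB gene Nfkbie was not among the members. Bcl3, a nuclear IκB protein that binds p50 and p52 homodimers and can act as a coactivator, had a signal of 418.8 in olive oil liver and 97.9 in fasted liver, 4.28-fold higher. Its 3 probe sets, of which 2 were measured, gave log2 differences of 2.10, 2.42 and 1.98, so they agreed in sign and differed by little more than the scatter between probe sets. Nfkbiz, the nuclear protein IκBζ, had 679.6 in olive oil liver and 280.4 in fasted liver, 2.42-fold higher. A second probe set of Nfkbiz was dim, at 18.1 in olive oil and 21.7 in fasted liver, and differed by -0.26.

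Nfkbia encodes IκBα, the main cytoplasmic inhibitor of p65 and a target of NF-κB itself. It had 655.8 in olive oil liver and 296.0 in fasted liver, 2.22-fold higher. Nfkbib, encoding the related inhibitor IκBβ, had 519.8 in olive oil and 302.7 in fasted liver, 1.72-fold higher. Nfkbil1, named for a resemblance to IκB, was 1.77-fold higher, at 115.4 in olive oil and 65.3 in fasted liver. Classical and nuclear IκB genes were thus higher side by side. Nfkbid, the nuclear protein IκBNS, was too dim to count, at 17.6 in olive oil and 4.0 in fasted liver. Nfkbia, Nfkbib and Nfkbil1 had 1 probe set each, without a second to compare.

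Tnfaip3 and its partners Tnip1 and Tnip2 lay within 1.5-fold. Tnfaip3 encodes A20, a ubiquitin-editing enzyme that shuts off signalling from the TNF receptor and is a standard target of NF-κB, and it had 141.7 in olive oil liver and 128.2 in fasted liver. Tnip1, a partner of A20, had 327.5 in olive oil and 320.3 in fasted liver, and Tnip2, of the same family, had 130.0 in olive oil and 101.9 in fasted liver. The log2 differences of these 3 genes were 0.14, 0.03 and 0.35. Of 8 measured members of the TNFAIP and TNIP group, 0 were higher by 1.5-fold or more and 3 (37.5%) were lower by that much, against 10.1% of all measured genes.

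The 3 lower genes of this group included both measured relatives of Tnfaip8 whose signal differed by 2-fold or more. Tnfaip8l1, which with its relatives encodes lipid-binding proteins of the TIPE family, had 43.7 in olive oil liver and 220.5 in fasted liver, 5.05-fold lower. Tnfaip8l2, a TIPE protein known as a brake on immune signalling, was dim, at 26.4 in olive oil and 65.7 in fasted liver, 2.49-fold lower. With the floor at the 50th percentile of signal its log2 difference of -1.32 was only -0.59, under 2-fold, and with an offset of 16 it was -0.95. Tnfaip8 itself was not measured, at 4.4 in olive oil and 32.9 in fasted liver. The third relative, Tnfaip8l3, stood at 57.8 in olive oil and 61.1 in fasted liver. Tnfaip2, a TNF-induced gene of cell protrusions, was 1.57-fold lower, with a signal of 111.2 in olive oil and 174.9 in fasted liver, and its second measured probe set differed by -0.38. Tnfaip1, an adaptor of a ubiquitin ligase, was within 1.5-fold, at 710.1 in olive oil and 540.3 in fasted liver.

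The RELT family split. Relt is a TNF receptor family member, and Rell1 and Rell2 are its paralogues. Rell1 had 596.4 in olive oil liver and 94.7 in fasted liver, 6.30-fold higher, the highest difference of the measured members. Relt had 20.7 in olive oil liver and 125.2 in fasted liver, 6.05-fold lower. Rell2 stood at 87.3 in olive oil and 87.4 in fasted liver. Each of the 3 genes had 1 probe set. The log2 difference of Rell1 stayed between 2.47 and 2.65 in all settings that could give it, while that of Relt, whose olive oil signal was dim, ran from -2.67 to -1.52. It was the lowest of the measured members at -2.60 in the main setting, but Tnfaip8l1 was lower with the higher floor, at -2.34, and with the offset, at -1.99 against -1.94 for Relt. By their suffix, the probe sets of Rell1 and of Tnfaip8l1 bind several transcripts of the gene.

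Of the TNF receptors, 4 of 14 members were measured, and all 4 had a positive difference, as did 48.3% of all measured genes. Tnfrsf1a, the receptor TNFR1 through which TNF acts on hepatocytes, had 2617 in olive oil liver and 1331 in fasted liver, 1.97-fold higher and just under the 2-fold mark. Tnfrsf12a encodes Fn14, the receptor of TWEAK, which is induced in injured and growing liver. It had 218.7 in olive oil liver and 83.8 in fasted liver, 2.61-fold higher. Tnfrsf1b, the receptor TNFR2, stood at 75.5 in olive oil and 66.0 in fasted liver, and Tnfrsf11b, the decoy receptor osteoprotegerin, at 91.5 in olive oil and 77.3 in fasted liver. These 2 differed by 0.19 and 0.24 on the log2 scale.

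The other 10 receptors were too dim to count. Tnfrsf21, the death receptor DR6, had the largest difference of these 10, at 64.5 in olive oil and 13.1 in fasted liver. Its second probe set, at 43.7 in olive oil and 17.0 in fasted liver, differed the same way. The log2 difference of Tnfrsf21 was 2.30, but 0.57 with the higher floor. Tnfrsf9, the costimulatory receptor 4-1BB, lay at 13.8 in olive oil and 40.7 in fasted liver. Tnfrsf8, Tnfrsf11a and Tnfrsf19 were below the floor of 12.8 on both arrays. Tnfrsf4 (OX40), Tnfrsf14, Tnfrsf17, Tnfrsf25 and Tnfrsf26 had signals of 25.6 to 49.9 in olive oil liver and 21.0 to 38.9 in fasted liver.

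The 3 measured ligands were all lower, as were 4760 of all 9208 measured genes. Tnfsf10 encodes TRAIL, a ligand that can trigger cell death, and had 46.8 in olive oil liver and 125.3 in fasted liver, 2.68-fold lower. Tnfsf13, encoding the B cell factor APRIL, had 142.0 in olive oil and 255.1 in fasted liver, 1.80-fold lower, and its 2 probe sets gave -0.85 and -0.72 on the log2 scale. Tnfsf12, encoding TWEAK, the ligand of Fn14, had 188.8 in olive oil and 233.7 in fasted liver, a log2 difference of -0.31. The receptor Tnfrsf12a and its ligand Tnfsf12 therefore stood on opposite sides of 0, the ligand within 1.5-fold. Tnfsf4, Tnfsf9 and Tnfsf11 were too dim to count. Of these, Tnfsf9, the ligand of 4-1BB, stood at 37.3 in olive oil and 14.1 in fasted liver.

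Of 13 adaptors next to the receptors, 10 were measured. Of these, 8 (80.0%) lay within 1.5-fold, near the 80.4% of all measured genes that did. Traf2, which joins TNFR1 complexes, stood at 53.0 in olive oil and 50.4 in fasted liver, and Traf3, a restraint on the alternative pathway, at 138.5 in olive oil and 152.5 in fasted liver. Traf6, the ubiquitin ligase of the interleukin 1 and Toll-like receptor branch, had 223.8 in olive oil and 187.7 in fasted liver, and its 4 measured probe sets differed by -0.05 to 0.25. Tank, a TRAF-binding modulator, had 365.4 in olive oil and 320.6 in fasted liver. The members Traf4, Traf7 and Traf3ip1 also lay within 1.5-fold, between -0.39 and 0.14 on the log2 scale.

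The 2 measured adaptors beyond 1.5-fold went opposite ways. Traf3ip2, the adaptor Act1 of the interleukin 17 receptor, was 1.88-fold higher, at 93.9 in olive oil and 49.9 in fasted liver. Tradd, the death-domain adaptor of TNFR1, was 1.62-fold lower, at 84.7 in olive oil and 137.0 in fasted liver. Fadd, which links death receptors to caspase 8, had 61.0 in olive oil and 77.9 in fasted liver. Traf1 and Traf5 were too dim to count. Their signals were 37.5 and 32.1 in olive oil liver, against 12.2 and 10.6 in fasted liver, where both lay below the floor. Traf3ip3, also too dim, stood at 33.5 in olive oil and 19.2 in fasted liver.

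Ripk1, the kinase at the branch between survival and death signalling, stood at 251.7 in olive oil and 280.2 in fasted liver, with a second measured probe set of the opposite sign, at 0.37 on the log2 scale against -0.15. Ripk2, the kinase below the NOD receptors, had 89.0 in olive oil and 92.6 in fasted liver. Ripk4, a kinase of epithelial differentiation, was 1.59-fold lower, at 162.0 in olive oil and 256.9 in fasted liver. Ripk3, the kinase of necroptosis, was just below the filter, at 40.5 in olive oil and 37.4 in fasted liver. The inhibitors of apoptosis Birc2 and Birc3, ubiquitin ligases of the TNFR1 complex, differed by -0.28 and -0.40, with signals of 550.0 and 47.1 in olive oil liver, against 667.2 and 62.0 in fasted liver. Birc5, survivin, and Birc7 were too dim, at 3.3 and 21.5 in olive oil liver, against 24.2 and 42.4 in fasted liver.

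In the Toll-like receptor and interleukin 1 branch, 4 of 5 Toll-like receptors were too dim to count, while Myd88, Irak1, Irak2 and Irak3 were measured. Myd88, the adaptor shared by most Toll-like receptors and the interleukin 1 receptor, had 1352 in olive oil liver and 694.5 in fasted liver, 1.95-fold higher. Irak3, known as IRAK-M, an IRAK without strong kinase activity that restrains signalling, had 217.9 in olive oil liver and 52.8 in fasted liver, 4.13-fold higher. The active kinase Irak1 stood at 1700 in olive oil and 1783 in fasted liver, and its 2 measured probe sets differed by -0.07 and 0.18. Irak2, a further kinase of the complex, had 148.4 in olive oil and 103.4 in fasted liver, 1.44-fold higher and short of 1.5-fold. Irak4 and the Irak1-binding protein gene Irak1bp1 were too dim to count, at 13.7 and 51.4 in olive oil liver, against 1.7 and 29.6 in fasted liver.

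Of 5 Toll-like receptor genes, only Tlr8, a receptor for RNA, was measured, at 43.7 in olive oil and 70.7 in fasted liver, 1.62-fold lower. Tlr4, the receptor of bacterial lipopolysaccharide, was at 24.4 in olive oil and 44.9 in fasted liver, and Tlr2, the receptor of bacterial lipoproteins, at 5.0 in olive oil and 32.6 in fasted liver. Tlr1 stood at 45.5 in olive oil and 23.0 in fasted liver, and Tlr7 at 19.7 in olive oil and 24.4 in fasted liver. On the log2 scale Tlr2 and Tlr4 differed by -1.35 and -0.88 in the main setting, and by -1.21 and -0.59 with the offset of 16. With a floor at the 50th percentile they differed by 0.00 and -0.04. That floor lies above both signals of Tlr2 and close to the brighter signal of Tlr4, so it fixed these values. Both genes were too dim to count, and no difference is read from them.

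Irak3 and Toll-like receptors are known mainly from myeloid cells, and markers of these cells are given beside them. Kupffer cell markers were level as stated above. Of 4 neutrophil markers on the arrays, 3 were measured and 2 of them higher by 2-fold or more. S100a9, a calgranulin, had 253.1 in olive oil liver and 62.9 in fasted liver, and S100a8, its partner, had 75.7 in olive oil and 32.0 in fasted liver. Csf3r was below the floor on both arrays, Ncf1 was 0.52 apart on the log2 scale, and the summed neutrophil signal was 391.1 in olive oil liver and 137.7 in fasted liver. Of 9 lymphocyte markers on the arrays, only 2 were measured, Ptprc and Cd4, both within 1.5-fold. The 9 summed to 289.3 in olive oil and 357.3 in fasted liver, with Cd3d, Cd79b and Cd8a below the floor on both. Much of that sum was Ptprc, at 108.3 in olive oil and 158.6 in fasted liver. The part of these cells in the differences of Irak3, Tlr8 and the TNF ligands was not tested.

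Where a member had several probe sets, they could be set against each other. Of 6 members with 2 or more measured probe sets, Bcl3, Tnfaip2 and Tnfsf13 kept 1 sign, and Irak1, Ripk1 and Traf6, all within 1.5-fold, did not. The widest gap among the 6 was 0.52, in Ripk1. For 61 of the 76 members a single probe set was the only reading.

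**Figure D3:**
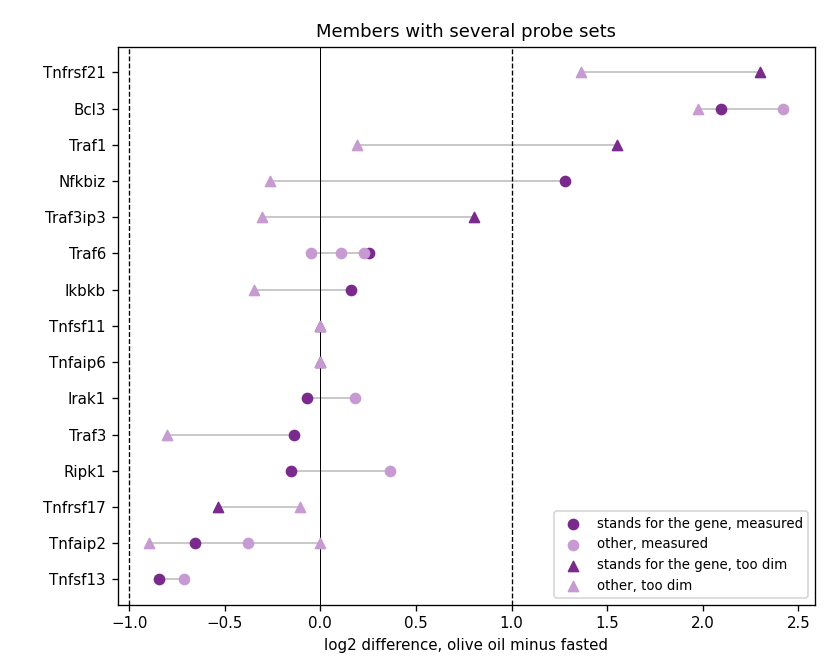
log2 difference (olive oil minus fasted) of every probe set of the members that had more than 1, with circles for measured and triangles for dim probe sets and the darker symbol standing for the gene. The 3 probe sets of Bcl3 all lie near or above 2, and the widest gaps are those that involve dim probe sets.

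Other genes of the pathway, whose symbols did not fall under the rule, were counted in the same way. They were listed with earlier results of these data known. Of 37 measured adaptors, kinases and receptors outside the members, 33 (89.2%) lay within 1.5-fold, against 80.4% of all measured genes. At 2-fold, 2 (5.41%) were higher and 1 (2.70%) was lower, against 3.25% and 2.94% of all measured genes, and the median log2 difference was 0.08. Cflar, a decoy of caspase 8 named after its values were seen, was among the 33 at 0.51 on its brightest probe set, at 175.8 in olive oil and 123.3 in fasted liver, but its other measured probe set gave 2.26. Il1r1, the interleukin 1 receptor above Myd88 and Irak3, was 4.37-fold higher, at 4903 in olive oil and 1122 in fasted liver. Ticam1, the adaptor TRIF of Tlr3 and Tlr4, was 2.31-fold higher, at 127.3 in olive oil and 55.2 in fasted liver. Xiap, an inhibitor of caspases, was 2.63-fold lower, at 241.8 in olive oil and 635.2 in fasted liver, with a second probe set at -1.48 on the log2 scale. Map3k14, the kinase NIK of the alternative pathway, was too dim to count, at 16.6 in olive oil and 75.9 in fasted liver.

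A list of TNF superfamily genes with other symbols and of proteins that act with them had 12 genes on the arrays, of which 4 were measured. These were the receptor genes Fas and Ltbr, the TNF-inducing factor gene Litaf, and Nsmaf, an adaptor of the TNF receptor. Fas, the death receptor, was 2.25-fold lower, at 67.4 in olive oil and 151.9 in fasted liver. Ltbr, the lymphotoxin β receptor, stood at 1722 in olive oil and 1470 in fasted liver. Tnf itself was too dim to count, at 16.0 in olive oil and 22.3 in fasted liver.

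Genes listed as NF-κB targets outside the members went both ways. The list was written with earlier results of these data known, so its shares describe the listed genes only. Of 33 measured targets, 6 were higher and 7 lower by 1.5-fold or more, and 4 of the 6 and 1 of the 7 reached 2-fold. These are 18.2% higher and 21.2% lower at 1.5-fold, against 9.46% and 10.1% of all measured genes, and 12.1% higher and 3.03% lower at 2-fold, against 3.25% and 2.94%. The median of the list was 0.03 on the log2 scale. Gadd45b, Cxcl1 and Mt2A were the highest, with log2 differences of 4.32, 2.91 and 2.02, and Il1rn, the interleukin 1 receptor antagonist, was 2.64-fold higher, at 152.7 in olive oil and 57.8 in fasted liver. Bcl2a1, a survival gene, was 2.84-fold lower, at 32.2 in olive oil and 91.6 in fasted liver. Genes named after their values were seen include Icam1 at 0.40, Sod2 at -0.22, Vcam1 at 0.00 and Irf1 at -0.75 on the log2 scale.

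Of 10 measured members at least 2-fold apart, 9 were at least 2-fold apart in every setting that could give them a value, the exception being Tnfaip8l2. The sizes moved more, as in Relt, and 4 of the 10 stayed among the measured members with the filter at the 75th percentile.

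**Figure D4:**
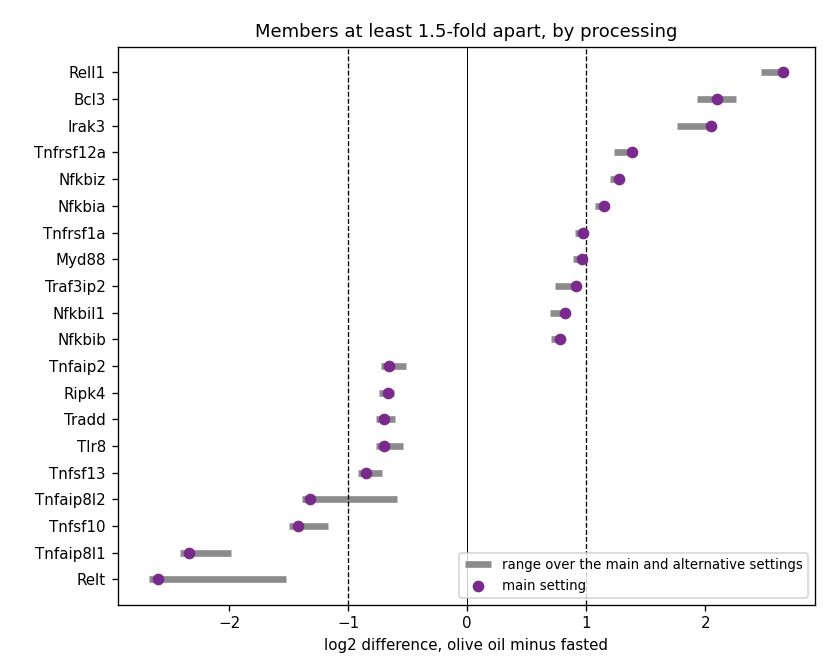
log2 difference (olive oil minus fasted) of the 20 measured members at least 1.5-fold apart in the main setting (point) with the range over the main and alternative settings (bar), and dashed lines at 2-fold. No bar crosses 0, and the bar of Tnfaip8l2 alone crosses a 2-fold line among the members called at 2-fold.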

How the data were processed

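Liver RNA of 2 groups, 1 array each, was labelled with biotin and hybridized to Affymetrix rat arrays. The deposited values are 1 linear signal intensity per probe set and array, made with Affymetrix Expression Console per the submitters' processing notes. Which algorithm and version it ran is not given in the sources used here. Means trimmed by 2% at each end were 200.1 on both arrays, as after a scaling to a common level. Intensities carry no detection call, and 1 array per group limits the precision.

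From 31042 probe sets that are no controls, signals below 12.8 (25th percentile) were raised to it and the log2 taken. A mean log2 signal at or above the median of all probe sets made a probe set measured. Fixed sizes of 2-fold and 1.5-fold replaced a test. Exactly 1 gene was annotated to 20826 probe sets, several to 436 and none was listed for 9780. Gene IDs of 20758 were held by a RefSeq table of GRCr8, used for names. The scatter of 0.35 is the pooled SD over 2290 genes with several measured probe sets, and covers probe error only.

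Members and lists (3 lists of pathway genes and 7 of cell type markers) were chosen with earlier results of these data known. Named members are those measured and 1.5-fold apart, those with a probe set 2-fold apart, and 34 pathway genes whatever their difference, of which 30 were analysed. Rel, Nfkbie, Ikbkg and Ikbke were not among the members. Other members are given so that each is accounted for. From the 3 lists of pathway genes, up to 4 measured genes of largest difference each, Map3k14 and Chuk are named. Cell type markers did not follow that rule, and no Kupffer cell, endothelial, stellate cell or bile duct marker is named. Of 6 measured endothelial markers, 1 was higher and 1 lower by 1.5-fold or more. The same counts, 1 and 1, held for 7 measured stellate cell markers. The 1 measured bile duct marker was within 1.5-fold. Others were chosen after their values were seen, among them Tnf, cell type markers and the targets marked in the text. The functions were tested on simulated data. Software was pandas 2.3.3 and numpy 2.4.6 under Python 3.11.15, with matplotlib 3.10.9 for plots.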

Additional observations from a re-analysis of the deposited data

How the results depend on the processing

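Each value was recomputed under 9 alternatives. They were median-centred arrays, quantile normalization, a 50th percentile floor, an offset of 16 in place of a floor, every probe set kept however dim, a 75th percentile filter, averaging a gene's measured probe sets, leaving out suffixed probe sets, and the platform's own symbols. With no filter, 10 members were higher and 7 lower at 2-fold, and 21 and 15 at 1.5-fold. With the filter at the 75th percentile, 21 members were left, of which 4 were higher and 0 lower at 2-fold, and 7 higher and 2 lower at 1.5-fold. Both changes follow from how many dim genes were counted. All other alternatives kept the 4 counts within 1.5 times. The median of the members, 0.05, ran from -0.02 with median-centred arrays, where its sign turned, to 0.16 with the 75th percentile filter. Of 420 alternative values of named members, 19 moved by more than the scatter of 0.35, and 0 of the called differences turned sign. The 19 came under the higher floor or the offset, in genes dim on at least 1 array. Many of the 420 could not move. For a member with 1 measured probe set, the filters and the averaging leave the value as it is. The suffix and symbol settings can only drop or regroup probe sets. A floor or an offset can shrink the difference between deposited signals but cannot turn its sign. Set against the main floor, the offset can also give a larger value, as in Irak4, with 0.75 against 0.10. No paired analysis was possible because each group had 1 array, and for the same reason none could be left out.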
